A study of Mus musculus with 6 samples.

Results

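The cytoplasmic ribosomal protein genes were followed in leukemia-initiating cells (LICs) from libraries labelled Asic3-null and WT. Members were taken by mouse symbol: Rpsa, Rplp0, Rplp1, Rplp2 and every Rpl or Rps symbol that goes on with a digit. Pseudogene symbols marked with -ps (33 rows) and the kinase and binding protein genes with like symbols (11 rows) were left out. This left 90 of the 27179 genes in the table, and the 88 with a mean of at least 1 RPKM over the 6 libraries are described here, 35 of the small and 53 of the large ribosomal subunit. RPKM is reads scaled by gene length and by library size. Of the other 2, Rpl10l had no read in any library and Rpl39l had 1 read, in WT replicate 3.

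The libraries came from a mouse model of acute myeloid leukemia in which Lin- fetal liver cells received the fusion oncogene MLL-AF9 with YFP by retrovirus and were transplanted into lethally irradiated C57BL/6 recipients. LICs were sorted from bone marrow as YFP+Mac-1+c-Kit+ cells, and total RNA was sequenced from 3 libraries of genotype Asic3-/- (Asic3-null) and 3 of genotype Asic3+/+ (WT), all with strain C57BL/6 and an age of 8 weeks. All sorted cells of both groups therefore carry the MLL-AF9 virus, and the labelled deletion of Asic3, an acid-sensing ion channel, belongs to the donor cells and not to the recipients. The labels do not say whether each library came from its own mouse, so p values measure the spread between these libraries.

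A ribosome is made of ribosomal RNA and about equal copies of each ribosomal protein, and the genes of these proteins are spread over the genome with 1 main expressed copy and many silent processed copies for most proteins. Their mRNAs are short, abundant and start with a run of pyrimidines, the TOP motif, through which growth signals set how strongly they are translated. Inherited loss of 1 copy of several of them gives Diamond-Blackfan anemia, in which the marrow makes too few red cells.

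The sequence around the start site was searched for features that the rule did not use. The promoter table of RefSeq for GRCm38.p6 held 66 of the 88 members. A C at the annotated start base followed by at least 4 further pyrimidines on the sense strand was found in 14 of the 66, 21.2%, against 2.35% of the tested genes with a promoter entry and 2.49% of all 27025 promoters in the table. With the C allowed up to 5 bases from the annotated start, the run was found in 31 members, 47.0%, against 20.1% and 18.5%. An ETS motif, CCGGAAG on either strand within the 300 bases, was in 24 members, 36.4%, against 20.2% and 9.12%, whereas the YY1 motif AAGATGGC was in 5 (7.58%, against 5.30% and 2.88%) and the TATA motif TATAAA in 7 (10.6%, against 6.82% and 14.2%). The E-box CACGTG was in 5 (7.58%, against 10.8% and 7.24%) and the CCAAT box CCAAT in 22 (33.3%, against 39.8% and 37.9%). A motif match is a description of letters and does not show binding. No promoter entry was matched for Rpl8, Rplp1, Rpl17, Rpl21, Rpl23a, Rpl29 and 16 others.

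The windows below run from 30 bases before to 20 bases from the annotated start, 5′ to 3′ on the gene's own strand, in lower case. Capitals mark a C within 5 bases of the annotated start and the unbroken C or T that follow it, at least 4 of them, and pyrimidines before that C are left in lower case. Rpl22l1, Rps3a1, Rpl14 and Rps6 are shown because they had the lowest adjusted p values of the members matched. Rps27 and Rps27l are shown because they are a paralog pair compared further on. Rpl15 is shown because its marked stretch was the longest of the windows extracted, at 17 bases. Rpl27a, whose window was not extracted, had a longer stretch of 20 bases. Regions on GRCm38.p6 are chr3:28805478-28805527 (plus strand) for Rpl22l1, chr3:86142649-86142698 (minus) for Rps3a1, chr9:120571487-120571536 (plus) for Rpl14, chr4:86857348-86857397 (minus) for Rps6, chr3:90213629-90213678 (minus) for Rps27, chr9:66946056-66946105 (plus) for Rps27l and chr14:18270967-18271016 (minus) for Rpl15.
Rpl22l1: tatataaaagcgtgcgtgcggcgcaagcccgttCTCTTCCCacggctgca
Rps3a1: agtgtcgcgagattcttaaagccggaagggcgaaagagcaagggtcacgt
Rpl14: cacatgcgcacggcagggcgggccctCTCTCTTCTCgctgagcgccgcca
Rps6: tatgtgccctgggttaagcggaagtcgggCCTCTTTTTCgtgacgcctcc
Rps27: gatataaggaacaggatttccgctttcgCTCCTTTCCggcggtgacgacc
Rps27l: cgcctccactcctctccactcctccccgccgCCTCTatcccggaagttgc
Rpl15: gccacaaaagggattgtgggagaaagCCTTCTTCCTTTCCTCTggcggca
The window of Rps3a1 held no such stretch. In that of Rpl14 further pyrimidines precede the marked C. The windows of Rps3a1 and Rps27l held CCGGAAG. For Rps27l the table lists 2 starts, and the window shown is at the one inside the gene span (chr9:66944624-66949522), not at its outer end.

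For the series as a whole, whole reads could be recovered from the RPKM values of every gene above 0. The library sizes inferred from these values lay between 1947168 and 2381861 reads, with 99.62% to 99.65% of them on genes. Asic3 ran against the labels, with 9.12, 4.11 and 6.58 RPKM in Asic3-null-labelled libraries and 1.22, 1.85 and 0.435 RPKM in WT-labelled ones, so directions below are given by label. Sex-linked genes also separated the groups, and sex and genotype cannot be told apart. Of the sort markers, Kit had 17.6 against 11.1 RPKM (adjusted p = 0.219 from limma) and Itgam, which encodes the Mac-1 alpha chain, was lower in Asic3-null-labelled libraries (log2 fold change -2.35 with an adjusted p of 0.00072 in limma).

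The members spanned a wide range of levels. Mean RPKM ran from 2.20 for Rpl3l, a form best known from muscle, to 3339 for Rpl8, a protein of the large subunit core, a 1520-fold range with a median of 140.2 RPKM. The 13 members of at least 1000 RPKM held 63.8% of the members' summed RPKM, and 14 members lay under 20 RPKM. The gene lengths behind the values were short, with a median of 693.5 bases against 2474 over all tested genes, and 68 members were under 1000 bases, against 16.2% of the tested genes.

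Among the most abundant members of each subunit, those given here had higher means in Asic3-null-labelled libraries without passing the test. Rpl8 (chr15:76904071-76906318) had 3706, 4086 and 3477 RPKM in Asic3-null-labelled libraries and 3043, 2694 and 3026 RPKM in WT-labelled ones, without overlap (log2 fold change 0.36, 95% interval 0.10 to 0.62, adjusted p = 0.155 from limma). All 3 of its values labelled Asic3-null lay above all 3 labelled WT. Rplp1, a protein of the stalk that recruits elongation factors, had 2248 ± 277 against 1852 ± 282 RPKM (SD, n = 3 each), and its groups overlapped. Rpl4, which lines the exit tunnel of the large subunit, had 2190 ± 96.7 against 1815 ± 140 RPKM, Rps9 had 2046 ± 187 against 1878 ± 43.5 RPKM and Rps3, at the entry of the mRNA channel, had 1505 ± 98.8 against 1256 ± 126 RPKM, each without overlap.

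With limma on log2(RPKM + 1) and p adjusted over all 12037 tested genes, no member passed an adjusted p of 0.05, where 3.35% of all tested genes did, 0.523% of them higher and 2.82% lower in Asic3-null-labelled libraries. At an unadjusted p under 0.05 there were 17 members, all higher in Asic3-null-labelled libraries, where 6.43% of tested genes were higher and 9.45% lower at that threshold. With limma-voom on the recovered reads no member passed the adjustment either, and 1 member did so with quantile normalization, Rpl14. The mean was higher in 79 of the 88 members, 89.8%, where 54.5% of tested genes had a higher mean. The groups did not overlap in 36 members that were higher and in 1 that was lower, Rpl23a, where 11.2% of tested genes were higher and 11.4% lower without overlap. The median log2 fold change was 0.24 (quartiles 0.15 and 0.28, range -0.37 to 0.60), a ratio of 1.18, against a median of 0.03 over all tested genes. Members share libraries and are not replicates, so these counts are descriptions and carry no test of their own. Among the 862 tested genes outside the members with at least 100 RPKM, 6.96% were higher at an unadjusted p under 0.05, 10.9% were higher without overlap and 55.1% had a higher mean.

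**Figure D1:**
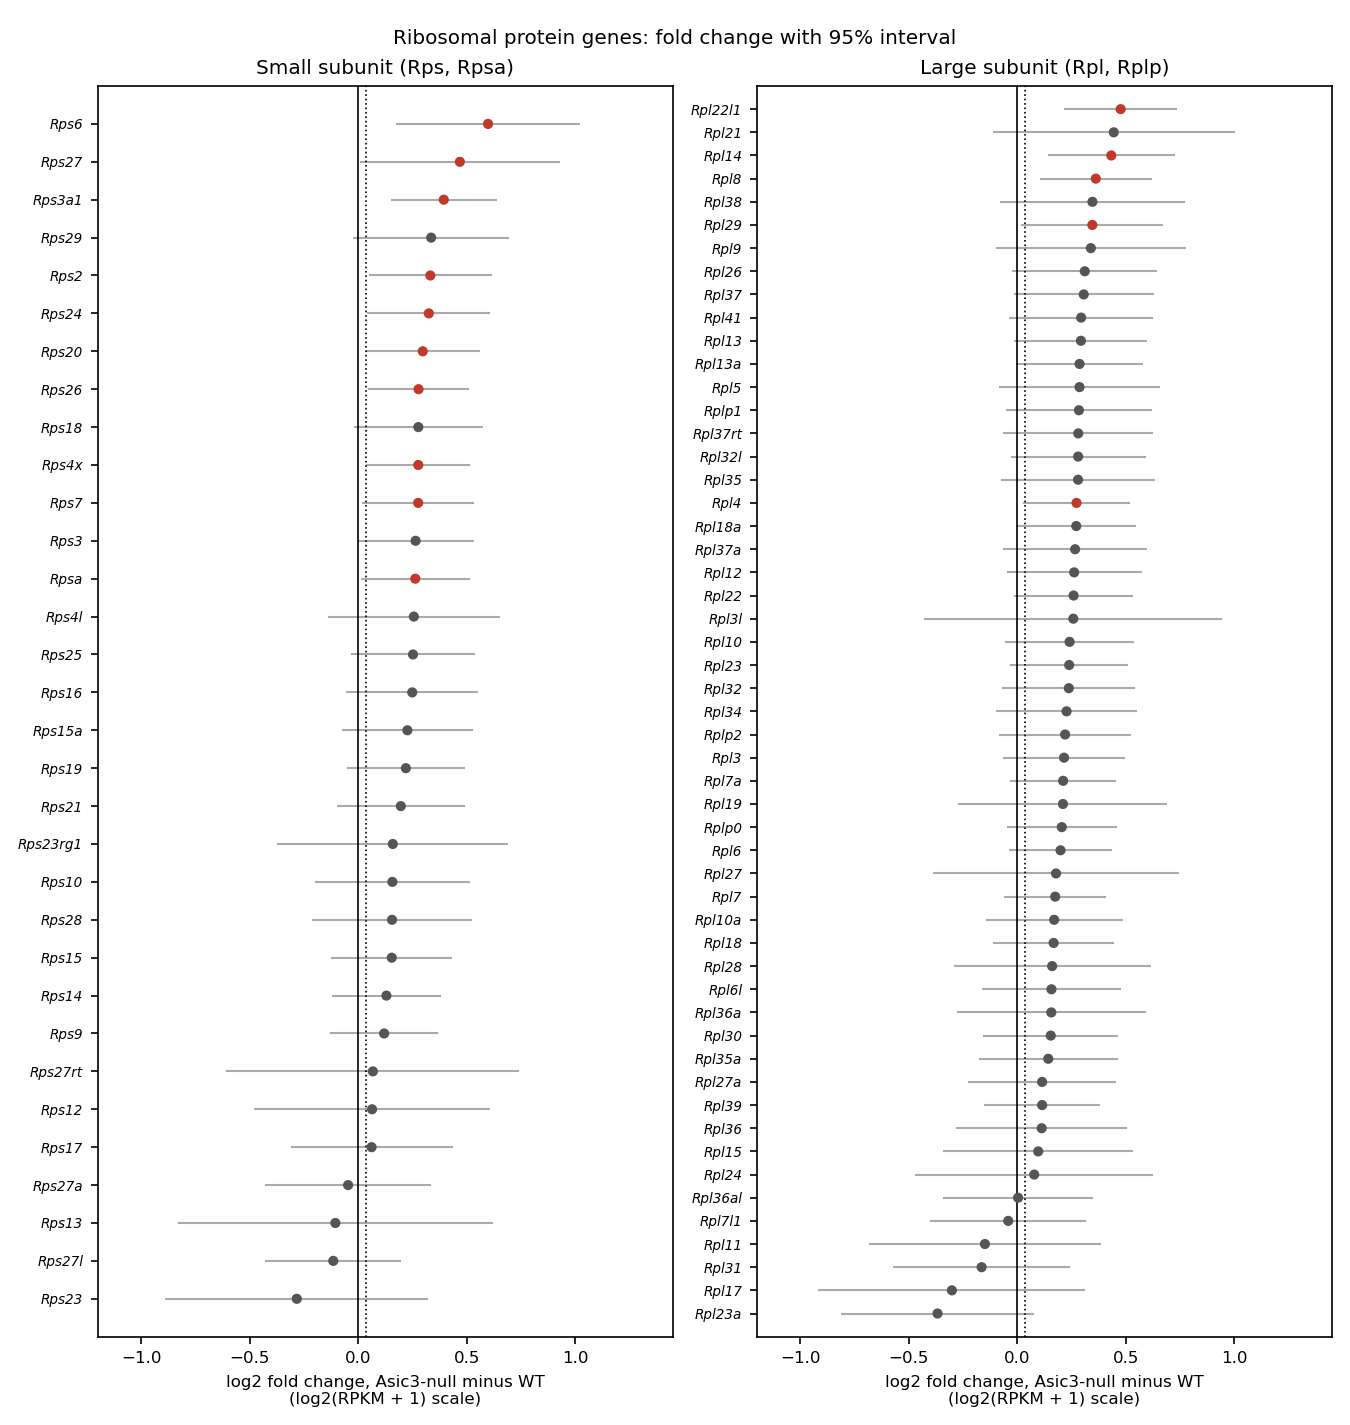
Log2 fold change of 85 of the 88 ribosomal protein genes, Asic3-null minus WT on the log2(RPKM + 1) scale, with its 95% interval from limma, for the small subunit (left) and the large subunit (right). Red points have an unadjusted p under 0.05 and none passed adjustment, the solid line is 0 and the dotted line is the median of all tested genes, 0.03. The points lie right of 0 for 76 of the genes drawn, with Rps6 highest at 0.60 and Rpl23a lowest at -0.37.

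The shift was not even over the libraries. The median deviation of the members from each gene's mean over the 6 libraries was 0.10, 0.24 and 0.04 (log2) in Asic3-null replicates 1 to 3 and -0.01, -0.23 and -0.09 in WT replicates 1 to 3. Asic3-null replicate 2 was the highest library in 65 members and WT replicate 2 was the lowest in 56. Without these 2 libraries, an alternative chosen after seeing the data, the median log2 fold change was 0.11, the mean was higher in 67 members and 3 reached an unadjusted p under 0.05. Without WT replicate 1 the last count was 26, and it was 5 when either Asic3-null replicate 2 or WT replicate 2 was left out alone.

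**Figure D2:**
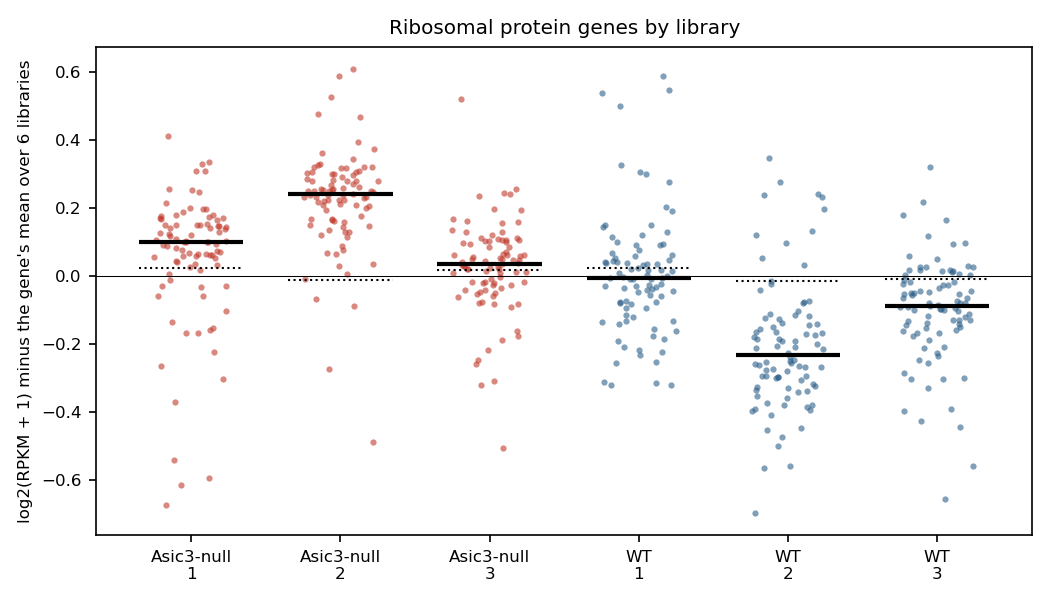
Deviation of each ribosomal protein gene from its mean over the 6 libraries, log2(RPKM + 1), by library, with 1 point per gene. Thick lines are the medians over the 88 genes, which run from 0.24 in Asic3-null replicate 2 to -0.23 in WT replicate 2, and dotted lines are the medians over the other tested genes.

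As a share of all summed RPKM the members held 7.50%, 7.77% and 7.24% in Asic3-null-labelled libraries and 6.66%, 5.78% and 6.43% in WT-labelled ones. The ranges did not overlap. The means were 7.51% ± 0.27 and 6.29% ± 0.46 (SD, n = 3 each), a difference of 1.22 percentage points, or 19.4% of the WT mean. In recovered reads, where short genes weigh less, the share was 3.11% ± 0.22 against 2.61% ± 0.20. In bulk RNA, fewer cells of a type and less RNA per cell cannot be told apart.

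Neutrophil granule genes moved with the groups in the opposite direction. Of 17 such genes, 16 had a lower mean in Asic3-null-labelled libraries and 13 were called lower, against 2.82% of all tested genes. The median log2 fold change of the 17 genes was -2.60. The list held 0.820% to 1.03% of summed RPKM in Asic3-null-labelled libraries and 2.09% to 2.46% in WT-labelled ones. The defining genes S100a9 and Camp had 54.8 ± 22.0 against 1081 ± 56.4 RPKM and 10.6 ± 4.83 against 456 ± 85.2 RPKM, so that none was at 0. Ctsg was the gene with a higher mean, 1394 against 1029 RPKM (log2 fold change 0.43, adjusted p = 0.289 from limma). Ms4a3, Mpo and Prtn3 were lower but not called, with log2 fold changes of -1.02, -0.61 and -0.38. With the 17 genes left out of the sum, the share of the ribosomal protein genes was 7.58% against 6.44%, a difference of 1.14 points. The part of these cells in the other values was not tested. Of the erythroid, T cell and B cell lists, 1 of 9, 2 of 11 and 2 of 11 genes had a mean of at least 1 RPKM, and none was called.

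**Figure D3:**
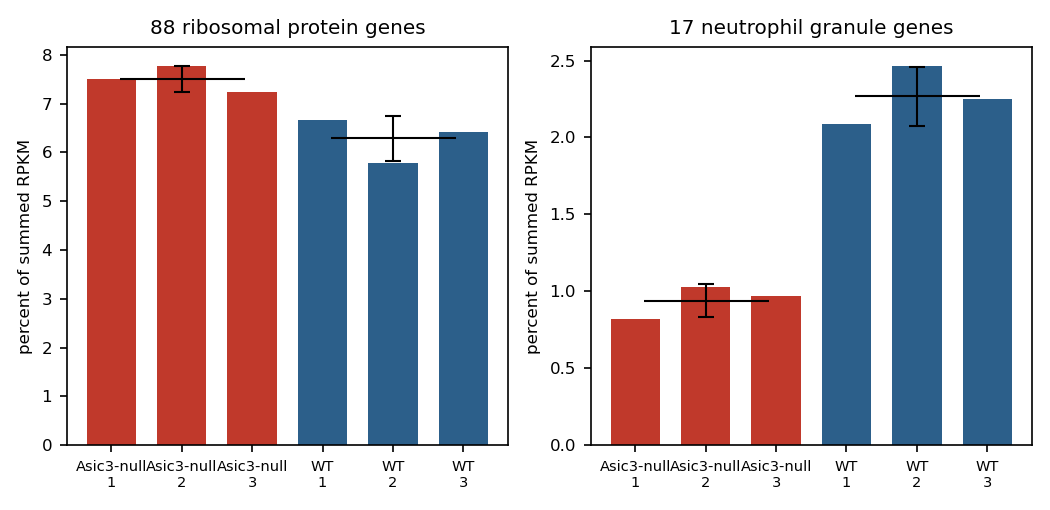
Percent of the summed RPKM of each library held by the 88 ribosomal protein genes (left) and by 17 neutrophil granule genes (right), as bars per library, with the group mean and SD in black. The ribosomal protein share is 7.24% to 7.77% in Asic3-null-labelled libraries and 5.78% to 6.66% in WT-labelled ones, and the neutrophil share is lower in the former.

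The member with the lowest adjusted p was Rpl22l1 (Entrez 68028, chr3:28805508-28807424), the paralog of Rpl22, a large subunit protein that is not needed for translation in general and is known for its part in lymphocyte development. Rpl22l1 had 172, 154 and 156 RPKM in Asic3-null-labelled libraries and 109, 114 and 123 RPKM in WT-labelled ones. All 3 of the former lay above all 3 of the latter, with means of 161 ± 9.82 and 115 ± 7.28 RPKM (log2 fold change 0.48, standard error 0.12, interval 0.22 to 0.74, adjusted p = 0.0633 from limma). Over 16 alternatives its log2 fold change lay between 0.43 and 0.52 and its adjusted p from limma between 0.0536 and 0.232.

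Rps6, whose phosphorylation by S6 kinases is the usual readout of mTOR activity, had the highest log2 fold change of the members, 0.60 (interval 0.17 to 1.02, adjusted p = 0.155 from limma). It had 17.7, 26.8 and 20.8 RPKM in Asic3-null-labelled libraries and 14.3, 12.2 and 15.2 RPKM in WT-labelled ones. The groups did not overlap, but the level was low for a ribosomal protein gene. Of its transcript's 50-base windows, 84.6% also occur in other annotated genes. The transcript searched had 878 bases, against a gene length of 1394 bases behind the RPKM. Rpl14 had 323, 357 and 301 RPKM against 241, 215 and 272 RPKM (log2 fold change 0.43, interval 0.14 to 0.73, adjusted p = 0.133 from limma). With quantile normalization the adjusted p of Rpl14 from limma was 0.0397, and over the 16 alternatives it lay between 0.0397 and 0.437. Rps27, a zinc finger protein of the small subunit, and Rpl21 complete the 5 highest, with 28.1 ± 1.08 against 20.6 ± 5.46 RPKM and 6.25 ± 1.86 against 4.24 ± 0.68 RPKM. The groups did not overlap for Rps27 and overlapped for Rpl21.

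At the other end, Rpl23a, which sits at the exit of the peptide tunnel, had 3.86, 5.25 and 4.56 RPKM in Asic3-null-labelled libraries and 5.94, 6.42 and 6.03 RPKM in WT-labelled ones. It was the member that was lower without overlap (log2 fold change -0.37, interval -0.81 to 0.08, adjusted p = 0.401 from limma), on a mean of 6.67 reads per library. Rpl17, Rps23, Rpl31 and Rpl11 followed with log2 fold changes of -0.30, -0.28, -0.16 and -0.15, and their groups overlapped. All 5 lay under 20 RPKM, and between 32.9% and 82.6% of their transcripts' windows occur in other annotated genes.

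**Figure D4:**
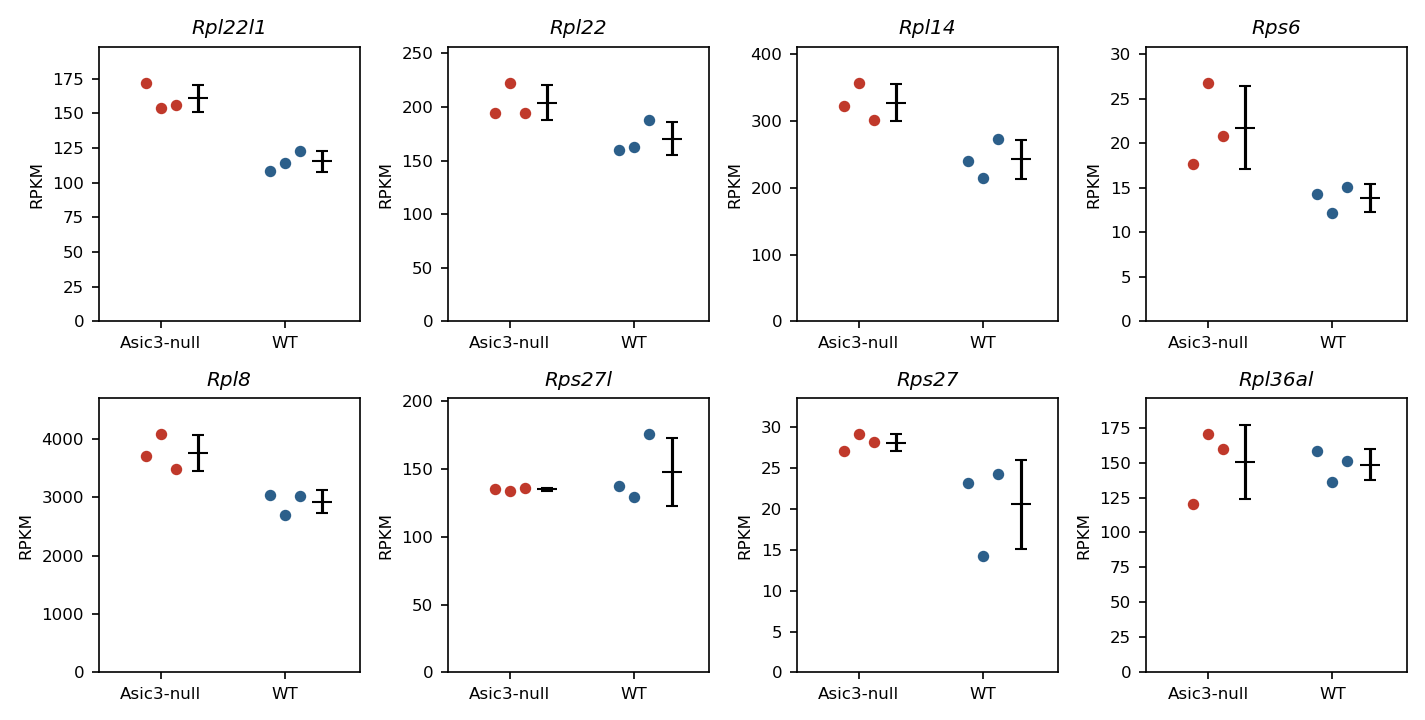
RPKM of 8 ribosomal protein genes in each library, with the group mean and SD beside the points (n = 3 each). Asic3-null-labelled libraries lie above all WT-labelled libraries for Rpl22l1, Rpl22, Rpl14, Rps6, Rpl8 and Rps27, and the groups overlap for Rps27l and Rpl36al.

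Among the small subunit genes, 31 of 35 had a higher mean in Asic3-null-labelled libraries, 12 reached an unadjusted p under 0.05 and 19 were higher without overlap, with a median log2 fold change of 0.25. Over all tested genes 6.43% were higher at that threshold and 11.2% were higher without overlap. Among the large subunit genes, the counts were 48, 5 and 17 of 53, with a median of 0.23. Among the 12 small subunit genes, named after their values were seen, were Rps3a1, Rps6, Rps26, Rps2, Rps4x, Rps24, Rps20, Rps7, Rpsa and Rps27. Rps3a1 (chr3:86137940-86142668) had 402, 432 and 415 RPKM against 335, 321 and 295 RPKM (log2 fold change 0.39, interval 0.15 to 0.64, adjusted p = 0.10 from limma). The least of its values labelled Asic3-null lay above the greatest labelled WT by more than the range of either group. Rpsa, also known as the laminin receptor, had 124 ± 7.20 against 103 ± 0.45 RPKM. The 5 large subunit genes were Rpl22l1, Rpl14, Rpl8, Rpl4 and Rpl29.

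The stalk of the large subunit is built from Rplp0, Rplp1 and Rplp2, where Rplp0 is the base. Named after their values were seen, Rplp0 had 1559 ± 124 against 1352 ± 85.8 RPKM, without overlap, and Rplp2 had 1007 ± 110 against 866 ± 108 RPKM, with overlap. Their log2 fold changes were 0.20 and 0.22, beside 0.28 for Rplp1.

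Of the 52 members of at least 100 RPKM, 51 had a higher mean in Asic3-null-labelled libraries and 31 were higher without overlap (median log2 fold change 0.26), where 10.9% of other genes at that level were higher without overlap. The exception to the higher mean was Rps27l. Of the 36 members below, 28 had a higher mean and 5 were higher without overlap (median 0.16), where 11.2% of all tested genes were. The 13 of at least 1000 RPKM all had a higher mean, whereas of the 14 under 20 RPKM it was 8. The median coefficient of variation within groups was 11.4%, and it was highest for Rpl3l, at 36.7% on 7.83 reads per library. The median width of the 95% interval was 0.31 to either side (log2). The upper end of the interval reached a 1.5-fold higher level in 35 members and a 2-fold higher level in 2, Rps6 and Rpl21.

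Many members have processed copies, and how reads that match several places were counted is not given in the sources used here. In the GENCODE M21 transcripts, a median of 50.1% of a member's 50-base windows occurred in another annotated gene. The share was 7.86% for Rpl8 and 2.96% for Rps3, and 92.1% for Rpl10 and 84.6% for Rps6. Members of at least 1000 RPKM had a median of 32.0%, with 1 of 13 at 50% or more, and members under 20 RPKM a median of 78.9%, with 9 of 14 at 50% or more. Over all 88 members Spearman's rho of the 2 measures was -0.31, a weak relation across genes, which are not independent replicates. The levels of members with a high share, Rps6, Rpl10, Rpl11 and Rpl23a among them, are therefore uncertain, as reads may have been given to a copy or left out. The kit did not mark strand, so overlapping antisense reads cannot be told apart. For the direction, the 44 members with at least 50% shared windows had a median log2 fold change of 0.21 with 38 higher. The 44 with less had a median of 0.26 with 41 higher. The transcript searched was within 20% of the gene length behind the RPKM in 77 of the 88 members. It was not for Rps20 (3706 against 502 bases) and Rps6 (878 against 1394 bases), among others. The shares of such members, and the split that uses them, are less certain.

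**Figure D5:**
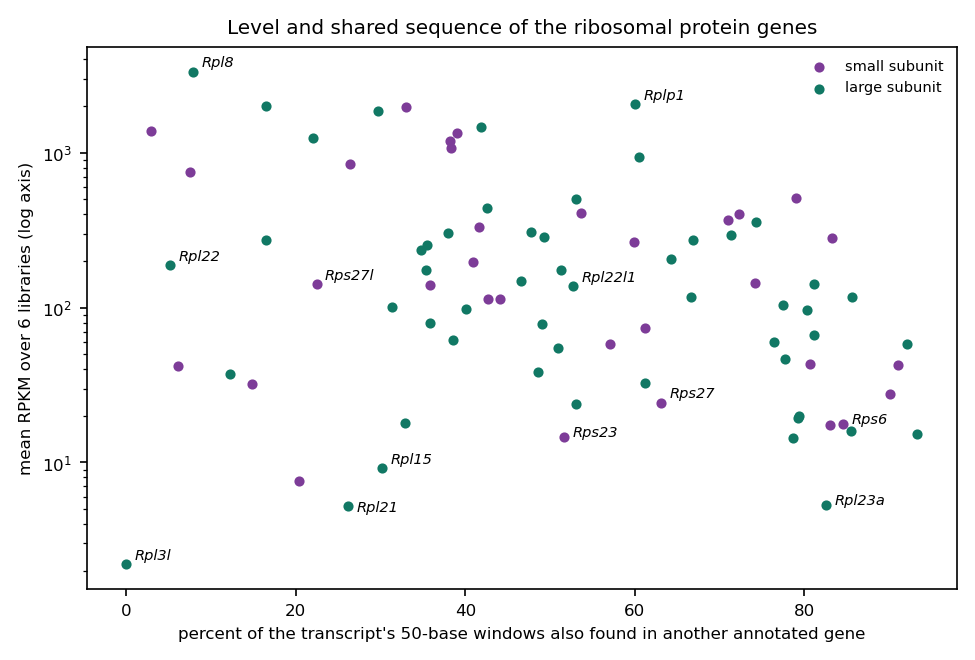
Mean RPKM over the 6 libraries (log axis) against the percent of a transcript's 50-base windows that also occur in another annotated gene, with 1 point for each of 85 ribosomal protein genes, colored by subunit. The highest point, Rpl8, lies at 7.86% shared windows. Some of the low points, Rps6 and Rpl23a among them, lie above 80%, and others lie at 32.9% or less.

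The paralog forms ran at levels of their own. Rpl22l1 lay below Rpl22, which had 195, 222 and 195 RPKM in Asic3-null-labelled libraries and 160, 163 and 188 RPKM in WT-labelled ones. Rps27l, a p53 target, lay above Rps27, with 135, 134 and 136 RPKM in Asic3-null-labelled libraries and 137, 129 and 176 RPKM in WT-labelled ones, and its groups overlapped. Rpl36al lay above the X-linked Rpl36a, with 150 ± 26.5 and 149 ± 11.3 RPKM against 16.8 ± 3.29 and 14.9 ± 2.46 RPKM. The parents of these last pairs share more of their windows with other genes. The share was 63.1% for Rps27 against 22.4% for Rps27l and 85.5% for Rpl36a against 46.5% for Rpl36al. In the first pair the paralog shares more, 52.7% for Rpl22l1 against 5.20% for Rpl22. The order of levels within all of these pairs is therefore uncertain. Rpl7l1 and Rpl3l lay below their parents, at 37.0 and 37.9 RPKM against 291 and 258 RPKM for Rpl7, and at 2.50 and 1.90 RPKM against 126 and 108 RPKM for Rpl3. Rps4l, which RefSeq lists as a pseudogene, had 34.8 ± 0.86 and 29.5 ± 7.06 RPKM, and Rps27rt had 44.3 ± 15.9 and 41.2 ± 11.3 RPKM.

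The ratio of each paralog to its parent was compared between the groups in 11 pairs by a two-sided exact permutation test, where 3 against 3 cannot give a p under 0.10. The pairs with Rpl6l, Rpl32l, Rpl37rt and Rps23rg1 were added after the table was seen. That smallest p was reached by 1 pair. The log2 ratio of Rps27l to Rps27 was 2.26 ± 0.06 in Asic3-null-labelled libraries and 2.87 ± 0.31 in WT-labelled ones (difference -0.61, exact p = 0.10, adjusted 0.471 over the 11 pairs). It rests on few reads of Rps27, 36, 40 and 38 in Asic3-null-labelled libraries and 28, 16 and 33 in WT-labelled ones. WT replicate 2, with 16 reads, gave the highest log2 ratio, 3.18. The log2 ratio of Rpl22l1 to Rpl22 was -0.34 ± 0.18 and -0.56 ± 0.05 (difference 0.22, exact p = 0.20, adjusted 0.471), and the groups overlapped. The differences of the 11 pairs ran from -0.61 to 0.49.

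The X-linked members were read apart because the groups also differed in their sex-linked genes. Rps4x, the X-linked copy of a small subunit gene, had 426, 473 and 430 RPKM in Asic3-null-labelled libraries and 381, 356 and 358 RPKM in WT-labelled ones, without overlap (log2 fold change 0.28, interval 0.04 to 0.52, adjusted p = 0.245 from limma). Rpl10 had 63.5 ± 7.26 against 53.4 ± 2.05 RPKM, without overlap. Rpl39 had 283 ± 7.31 against 263 ± 27.8 RPKM and Rpl36a the values above, both with overlap. The median of the 4 was 0.20, and that of the 84 autosomal members was 0.24.

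Of 17 members known as Diamond-Blackfan anemia genes, 16 had a higher mean in Asic3-null-labelled libraries, 4 reached an unadjusted p under 0.05 and 5 were higher without overlap, with a median log2 fold change of 0.22. Over all 88 members the counts were 79, 17 and 36, and over all tested genes the shares were 54.5%, 6.43% and 11.2%, so these genes are described as members and not as a result of their own. Rps19, the gene most often mutated in that disease, had 423, 483 and 412 RPKM against 408, 342 and 382 RPKM, without overlap. Rpl5 and Rpl11 join the smallest ribosomal RNA in the particle that binds Mdm2 when ribosome production is disturbed. Rpl5 had 47.1, 39.7 and 39.2 RPKM against 41.5, 29.8 and 32.2 RPKM (log2 fold change 0.29), and Rpl11 had 16.0, 17.7 and 20.1 RPKM against 28.8, 14.7 and 18.5 RPKM. Both overlapped, and the sign of Rpl11 turned without WT replicate 1.

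Ribosomal proteins whose symbols fall outside the naming rule were read from the same fit. Rack1, a small subunit scaffold for kinases, had 2086, 2336 and 2128 RPKM in Asic3-null-labelled libraries and 1888, 1791 and 1885 RPKM in WT-labelled ones, without overlap (log2 fold change 0.23, adjusted p = 0.318 from limma). Fau, which encodes a ribosomal protein fused to a ubiquitin-like protein, had 107 ± 17.4 against 112 ± 11.1 RPKM, and its groups overlapped.

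Other genes of ribosome production and translation were read in lists, beside shares over all tested genes of 54.5% with a higher mean, 6.43% higher at an unadjusted p under 0.05 and 0.523% called higher. Of 20 RNA polymerase I genes, which transcribe ribosomal RNA, 17 had a higher mean in Asic3-null-labelled libraries and 1 was called, Polr1c, a subunit shared with RNA polymerase III. Polr1c had 59.9, 77.5 and 66.9 RPKM against 44.1, 38.2 and 46.0 RPKM, without overlap (log2 fold change 0.66, adjusted p = 0.0461 from limma), and the call was lost in 13 of the 16 alternatives, over which its log2 fold change lay between 0.48 and 0.74 and its adjusted p from limma between 0.0405 and 0.258. Of 95 ribosome assembly genes, 85 had a higher mean and none was called (median log2 fold change 0.21, 9 higher and 1 lower at an unadjusted p under 0.05). All 11 elongation genes had a higher mean (median 0.21), as did 30 of 38 initiation genes (median 0.19), 15 of 20 regulators of ribosomal protein synthesis (median 0.11) and 60 of 78 mitochondrial ribosomal protein genes (median 0.14), and none of these was called. Eef2, the translocase of elongation, named after its values were seen, had 2101 RPKM against 1583 RPKM (log2 fold change 0.41, adjusted p = 0.0717 from limma).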

How the data were processed

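Total RNA of sorted LICs was sequenced in 3 libraries labelled Asic3-null and 3 labelled WT, made with the TruSeq RNA v2 kit. Per the submitters' processing notes, bases were called with CASAVA 1.8.2 and reads aligned to GRCm38 with TopHat2 2.0.12. The authors deposited 1 table of RPKM values for 27179 genes by Entrez number. The counting tool, its annotation and its handling of reads with several matches are not given in the sources used here. Symbols were matched through RefSeq (25275) and GENCODE M21 (18 more), and 1886 genes kept no symbol.

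The members and gene lists were chosen with earlier results of these data known. Genes with a mean of at least 1 RPKM were tested in limma 3.58.1 (R 4.3.3) on log2(RPKM + 1) values (moderated test with an intensity trend, two-sided, Benjamini-Hochberg adjustment over 12037 genes, threshold 0.05), and the step was tested on simulated data. In the simulated data, changes about as small as the members' median ratio were not recovered at that threshold. A fold change on the log2(RPKM + 1) scale understates that of genes with low values. Each of the 16825 genes above 0 gave whole reads within 0.0001 reads, from which limma-voom was run as an alternative. A median of 217 reads per library lay behind a member, and intervals cover the spread between libraries. Paralog pairs were compared in Python 3.11.15 with numpy 2.4.6, pandas 2.3.3 and scipy 1.17.1. The replicate numbers of the labels were treated as names, as same-numbered libraries did not deviate together.

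Members named with values were the 3 most abundant of each subunit, the 5 highest and 5 lowest log2 fold changes and any called, the X-linked members, the paralogs with their parents, Rack1 and Fau, the Diamond-Blackfan anemia genes Rps19, Rpl5 and Rpl11, the member with the highest coefficient of variation and, from other lists, genes called. A few genes under this rule are not reported here. Alternatives were a pseudocount of 0.1, no filter, a mean of at least 5 RPKM, quantile normalization, 2 forms of median-ratio scaling, a fit without intensity trend, the replicate block, limma-voom and each library left out. A pair of libraries left out together was chosen after seeing the data.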

Additional observations from a re-analysis of the deposited data

How the results depend on the processing

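The median log2 fold change of the ribosomal protein genes stayed above 0 in all alternatives, from 0.11 without the pair formed by Asic3-null replicate 2 and WT replicate 2 to 0.28 when Asic3-null replicate 3 was left out. No member was called in any alternative but quantile normalization, which called 1. The count at an unadjusted p under 0.05, 17, was 11 with median-ratio scaling, 33 with quantile normalization, 6 without the intensity trend, 3 without the 2 libraries and 5 to 26 with 1 library left out. The count of called genes over the whole table, 403, was 65 without the 2 libraries and 172 to 258 with 1 library left out. Of the genes in the lists of ribosome production and translation, 1 was called, 2 with quantile normalization or limma-voom, and 0 with a pseudocount of 0.1, no filter, either median-ratio scaling, no trend, the 2 libraries left out or 1 library left out. The share of summed RPKM differed by 1.22 points, by 0.499 points in recovered reads, 0.829 points without the 2 libraries and 0.963 to 1.40 points with 1 library left out. The causes were not tested.

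Same-numbered libraries had correlations of 0.06, -0.06 and -0.12 between their deviations, and differently numbered ones had -0.07 to 0.14. These values show no pairing by number, but with 3 libraries per group they cannot exclude one. With the replicate block 246 genes were called over the whole table, 0 members, 5 members reached an unadjusted p under 0.05 and 0 list genes were called.

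Of 31 members followed over 16 alternatives, 7 turned sign in at least 1. Rps9 was at -0.066 with quantile normalization, and Rpl36al, near 0, at -0.010 and -0.0076 under the 2 median-ratio scalings. With libraries left out, singly or as that pair, the log2 fold change of Rpl11 ran from -0.36 to 0.11, of Rpl36a from -0.10 to 0.27, of Rpl36al from -0.16 to 0.15, of Rpl7l1 from -0.22 to 0.080, of Rps27l from -0.20 to 0.016 and of Rps27rt from -0.38 to 0.39. The mean recovered reads behind a member ran from 6.67 to 6506 per library, which sets the counting error of its value.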

Other observations

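The 33 rows with pseudogene symbols that were left out of the members summed to 607, 658 and 544 RPKM in Asic3-null-labelled libraries and 549, 412 and 529 RPKM in WT-labelled ones, and the ranges overlapped. Of these rows, 7 had no read in any library and 23 had a mean of at least 1 RPKM. Of the 23, 19 had a higher mean in Asic3-null-labelled libraries. The median of their log2 fold changes was 0.23, and none was called by limma.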
